A study of Mus musculus with 8 samples.

Results

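The BCL2 family and survival genes described here are 10 genes that set how readily a T cell undergoes apoptosis. They are Bcl2, Mcl1, Bcl2l1, Bcl2a1b and Bcl2a1d, which protect the mitochondrion, Bax and Bcl2l11, which attack it, and Birc3, Cflar and Traf1, which act at tumor necrosis factor family and death receptors. They were taken by symbol from the deposited expression table, and all 10 were found among its 12417 entries. The list was drawn up with earlier results of these data known, so counts of its members are no independent test. All 10 averaged 1 TPM or more over the libraries and so belonged to the 10238 genes that were tested. TPM are read numbers corrected for transcript length and scaled to a fixed total per library. Each level is therefore a share of its library and not an absolute amount, and levels were compared between genes and libraries as such shares.

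The comparison asks how donor CD4+ T cells that lack the IL-33 receptor ST2 differ from donor cells that carry it after alloHCT, a model of graft-versus-host disease. ST2fl/fl cells came from B6 mice of the CD45.2 allotype with CD4-Cre, R26-LSL-YFP and St2fl/fl alleles, in which Cre driven by the Cd4 promoter deletes part of the ST2 gene during T cell development and switches on a YFP reporter. ST2WT cells came from St2+/+ B6 mice of the CD45.1 allotype, which carry neither Cre nor the reporter. T cells of both kinds were given together, with B6 bone marrow, to irradiated BALB/c recipients, and donor CD4+ T cells of each kind were sorted from the spleen on d5 for low-input RNA-Seq. There were 4 ST2fl/fl and 4 ST2WT libraries. A shared replicate number was read as a shared recipient. The donors differ in ST2, Cre, YFP and the segment of chromosome 1 with the CD45 gene at once, and the effects of these on a gene cannot be told apart. In sorted populations, fewer cells of a kind and less RNA per cell cannot be told apart either.

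Apoptosis through the mitochondrion begins when BAX and its relative BAK form pores in the outer membrane. Pro-survival proteins of the BCL2 family hold these pore formers and their activators in check, and BH3-only proteins such as BIM, the product of Bcl2l11, bind the pro-survival proteins and release the brake. In T cells, IL-7 and other cytokines of the common γ chain sustain BCL2, antigen receptor and NF-κB signals sustain BCL-XL and A1, and BIM removes activated cells when an immune response wanes. Receptors of the tumor necrosis factor family add a second arm, in which TRAF1, the ubiquitin ligase cIAP2 (Birc3) and c-FLIP (Cflar) favor NF-κB signaling and survival over caspase-8.

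Bcl2 and Bcl2l11, the pro-survival gene and its BH3-only antagonist, were the members that set the genotypes apart most. Both were higher in ST2fl/fl cells than in ST2WT cells in every recipient, by 1.72-fold and 2.25-fold as ratios of mean TPM. The RefSeq windows of 250 bases upstream of their transcripts (GRCm38.p6) are shown because these members moved together. Bcl2 has 1 such window and Bcl2l11 has 2. Capitals mark the matches found to a forkhead motif, GTAAACA, and to the half-site of the cAMP response element, TGACGT, each searched on both strands together with the κB consensus.
Bcl2, minus strand, chr1:106714291-106714540: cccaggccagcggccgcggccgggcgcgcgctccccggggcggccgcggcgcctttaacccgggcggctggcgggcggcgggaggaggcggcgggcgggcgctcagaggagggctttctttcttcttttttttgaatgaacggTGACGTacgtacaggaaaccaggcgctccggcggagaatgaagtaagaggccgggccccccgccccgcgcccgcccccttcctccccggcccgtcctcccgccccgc
Bcl2l11, first start, plus strand, chr2:128125788-128126037: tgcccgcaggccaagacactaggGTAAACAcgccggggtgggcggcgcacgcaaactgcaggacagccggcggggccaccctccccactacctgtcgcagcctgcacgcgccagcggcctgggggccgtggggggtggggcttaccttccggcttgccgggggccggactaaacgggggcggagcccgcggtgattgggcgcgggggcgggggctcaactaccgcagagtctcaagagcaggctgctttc
Bcl2l11, second start, plus strand, chr2:128127325-128127574: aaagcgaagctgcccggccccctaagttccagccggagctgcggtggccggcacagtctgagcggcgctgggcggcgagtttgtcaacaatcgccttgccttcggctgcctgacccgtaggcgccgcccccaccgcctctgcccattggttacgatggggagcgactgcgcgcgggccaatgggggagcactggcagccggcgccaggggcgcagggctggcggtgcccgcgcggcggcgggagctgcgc

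The window of Bcl2 held 1 TGACGT and that of the first Bcl2l11 start held 1 GTAAACA, both on the strand of the gene. Of all 32851 mouse windows of this length, 6.47% held TGACGT, 3.17% held GTAAACA and 7.25% held the κB consensus. No window of a member outside exons held the κB consensus. The motifs were chosen with the sequences in view, and a match is a stretch of letters, not a known binding site.

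Bcl2 (GRCm38 chromosome 1, 106538178 to 106714274, minus strand) encodes the founding pro-survival protein. Its level was 27.1, 25.3, 20.2 and 28.6 TPM in the ST2fl/fl libraries of recipients 1, 2, 3 and 4, against 15.5, 12.0, 14.1 and 17.4 TPM in their ST2WT libraries. There was no overlap, and the lowest ST2fl/fl library stood above the highest ST2WT library. Bcl2 averaged 25.3 ± 3.63 TPM in ST2fl/fl cells and 14.7 ± 2.28 TPM in ST2WT cells (SD, n = 4 each). Within recipients 1, 2, 3 and 4 it was 1.75, 2.11, 1.43 and 1.64 times higher in the ST2fl/fl library. The log2 fold change of TPM + 1, ST2fl/fl over ST2WT, was 0.74 (SE 0.14, 95% interval 0.43 to 1.05), with an adjusted p of 0.0501 from limma that falls just short of 0.05. With the recipient as a block in the fit, which uses the pairing of the libraries, limma gave the same difference with an adjusted p of 0.0286, and Bcl2 passed. A two-sided exact permutation test of Bcl2 alone gave p = 0.0286, the smallest that 4 against 4 libraries allow. Any gene without overlap reaches this p, so it restates the lack of overlap. Of all tested genes, 5.45% had every ST2fl/fl library above every ST2WT library and 4.58% had every one below. Bcl2 also passed in the fit without the block when ST2fl/fl library 3 (log2 fold change 0.84, adjusted p = 0.0492 from limma), ST2WT library 2 (0.65, adjusted p = 0.0307) or both libraries of recipient 2 (0.65, adjusted p = 0.0437) were left out. It no longer passed in the fit with the block when recipient 1, 3 or 4 was left out (limma adjusted p = 0.168, 0.0615 and 0.118), with log2 fold changes of 0.73, 0.82 and 0.76.

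A noncoding gene on the other strand, D630008O14Rik, lies inside Bcl2. Of its 2056 exon bases, 558 are shared with the 9157 exon bases of Bcl2. It was named after its values were seen. It was at 3.39, 1.35, 3.06 and 2.48 TPM in ST2fl/fl libraries and at 0.0817, 0.839, 0.626 and 0.83 TPM in ST2WT libraries, also without overlap, and did not pass (log2 fold change 1.16, SE 0.23, limma adjusted p = 0.0604, or 0.0701 with the block). Whether the library kept the strand is not given in the sources used here, so reads of D630008O14Rik and Bcl2 in the shared bases cannot be told apart. Bcl2 lies 31.3 Mb from Ptprc, the CD45 gene at which the donors differ. Of the 8 other tested genes within 5 Mb of Bcl2, which include D630008O14Rik, 0 passed without or with the block, while at an unadjusted p under 0.05 there were 2 higher and 0 lower in ST2fl/fl cells, where 7.11% and 6.8% of all tested genes were. On the whole of chromosome 1, 1.07% of 562 tested genes passed without the block, where 0.273% of all tested genes passed as higher and 0.244% as lower.

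Bcl2l11 (chromosome 2, 128126038 to 128162547, plus strand) encodes BIM. It was expressed at 5.51, 2.87, 4.23 and 4.53 TPM in the ST2fl/fl libraries and at 1.87, 1.6, 2.36 and 1.80 TPM in the ST2WT libraries. Again no ST2WT library reached the level of any ST2fl/fl library, although ST2fl/fl library 2 came close to ST2WT library 3. The means were 4.29 ± 1.09 TPM in ST2fl/fl cells and 1.91 ± 0.324 TPM in ST2WT cells (SD, n = 4 each), and the ratios within recipients 1, 2, 3 and 4 were 2.95, 1.79, 1.79 and 2.52. The log2 fold change of TPM + 1 was 0.84 (SE 0.17, 95% interval 0.47 to 1.22, limma adjusted p = 0.0604), and it understates the ratio of so low a gene. With the recipient as a block the limma adjusted p was 0.0441, and Bcl2l11 passed. The exact permutation p of the single gene was 0.0286, which follows from the lack of overlap. Without the block, Bcl2l11 passed when ST2fl/fl library 2 (log2 fold change 0.99, limma adjusted p = 0.0257), ST2WT library 2 (0.79, adjusted p = 0.0497) or recipient 2 (0.93, adjusted p = 0.0158) was left out. With the block, it no longer passed without recipient 1, 3 or 4 (limma adjusted p = 0.201, 0.0903 and 0.169).

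Of the 10 members, 0 passed the study's limits (a fold change over 1.5 with an adjusted p under 0.05) in the fit without the block, where 0.273% of all tested genes passed as higher in ST2fl/fl cells and 0.244% as lower. In the fit with the block 2 of the 10, Bcl2 and Bcl2l11, passed as higher and 0 as lower, beside 0.557% and 0.371% of all genes. At an unadjusted p under 0.05 without the block, Bcl2, Bcl2l11 and Cflar were higher and 0 members were lower, where 7.11% of all genes stood higher and 6.8% lower. The same 3 members had every ST2fl/fl library above every ST2WT library, as 5.45% of all genes did, and 0 members had every ST2fl/fl library below, as 4.58% of genes did. Of the 10 fold changes 9 were above 0, with a median of 0.21 on the log2 scale, against 0.01 over all tested genes. Bcl2 ranked 63 and Bcl2l11 72 among the 10238 genes by p.

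**Figure D1:**
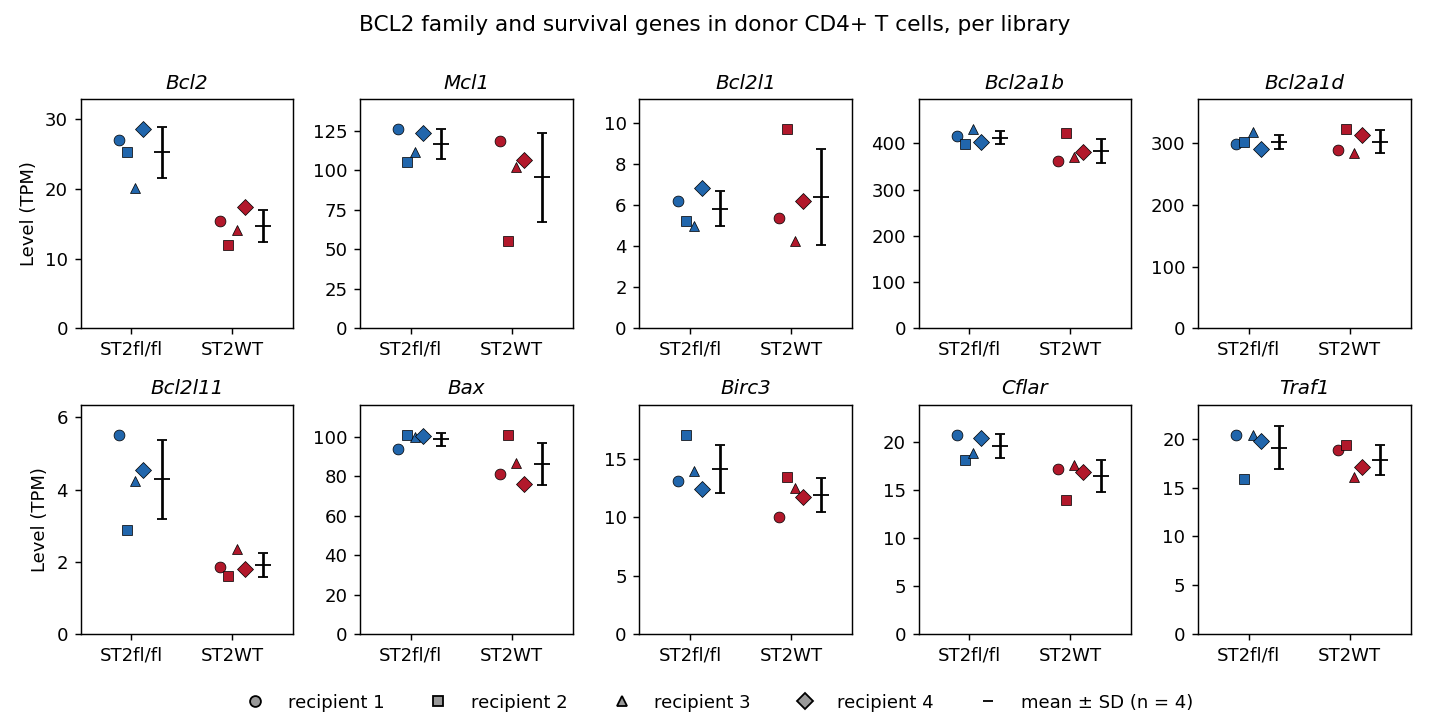
Level of each of the 10 genes in TPM (vertical axes from 0), with 4 ST2fl/fl libraries on the left (blue) and 4 ST2WT libraries on the right (red) of each panel. Marker shapes give the recipient, and bars the mean ± SD. Bcl2, Bcl2l11 and Cflar are the panels without overlap, and the ST2WT library of recipient 2 (square) lies apart in Mcl1 and Bcl2l1.

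Mcl1 (chromosome 3, 95658788 to 95663176, plus strand), whose short-lived product keeps T cells alive at most stages, was the next most abundant pro-survival member after the A1 genes. Its level was 126, 105, 112 and 124 TPM in ST2fl/fl libraries and 119, 55.0, 102 and 106 TPM in ST2WT libraries. Mcl1 was higher in the ST2fl/fl library of all 4 recipients, but in recipient 2 by 1.92-fold and in recipients 1, 3 and 4 by 1.06-, 1.10- and 1.16-fold. The groups overlapped and the gene did not pass (117 ± 9.73 TPM in ST2fl/fl cells, 95.5 ± 27.9 TPM in ST2WT cells, SD, n = 4 each; log2 fold change 0.34, SE 0.20, limma adjusted p = 0.463). Its 95% interval was -0.11 to 0.79 without the block and 0.02 to 0.66 with it, where the limma adjusted p was 0.231. Without ST2WT library 2 the log2 fold change was 0.10 (limma adjusted p = 0.610), and without recipient 2 it was 0.14.

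Bcl2l1 (chromosome 2, 152780668 to 152831728, minus strand), the gene of BCL-XL, was the scarcest pro-survival member. It was at 6.22, 5.25, 5.0 and 6.83 TPM in ST2fl/fl libraries and at 5.38, 9.70, 4.26 and 6.21 TPM in ST2WT libraries. In recipients 1, 3 and 4 it was slightly higher in the ST2fl/fl library, by 1.16-, 1.17- and 1.10-fold, and in recipient 2 it was at 0.542 of the ST2WT level. Its log2 fold change was -0.07 (SE 0.20, 95% interval -0.52 to 0.37, limma adjusted p = 0.889), and without ST2WT library 2 it was 0.12 (adjusted p = 0.735). The ratio of Mcl1 to Bcl2l1 shows the same library from both sides. It was 20.2, 20.1, 22.3 and 18.1 in ST2fl/fl libraries and 22.1, 5.67, 23.9 and 17.1 in ST2WT libraries.

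ST2WT library 2 stood apart beyond these genes. Its log2 values had an SD of 0.465 from the mean of the other libraries, against 0.242 to 0.279 for each of the rest, and 9.18% of its TPM fell on mitochondrially encoded genes, compared with 12.7% to 13.8% elsewhere. Mcl1 and Bcl2l1 had smaller or opposite differences without it, as given above, and Bcl2 and Bcl2l11 kept their direction and passed.

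Bcl2a1b and Bcl2a1d are near-identical mouse copies of the gene of A1, a pro-survival protein that NF-κB induces in activated lymphocytes. Another copy, Bcl2a1a, was also in the table. The sequence just upstream of the first exon is shown for the members to let their likeness be seen. Over 89 aligned columns 83 are identical (93.3%), and the capitals mark the 6 bases that only Bcl2a1b has.
Bcl2a1b, plus strand, chr9:89199076-89199164: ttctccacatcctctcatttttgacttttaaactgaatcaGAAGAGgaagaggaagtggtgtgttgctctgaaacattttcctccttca
Bcl2a1d, minus strand, chr9:88731915-88731997: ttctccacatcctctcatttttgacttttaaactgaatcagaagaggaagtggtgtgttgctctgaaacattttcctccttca

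The transcripts share sequence as well. Of the 768 windows of 50 bases in the Bcl2a1b transcript, 57.6% were also found unchanged in Bcl2a1d, and 41.1% in Bcl2a1a. Of the 814 windows of Bcl2a1d, 54.3% were found in Bcl2a1b and 64.0% in Bcl2a1a. How reads that fit several copies were assigned is not given in the sources used here, so the split between the copies is uncertain.

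The A1 genes were by far the most abundant members. Bcl2a1b (chromosome 9, 89199209 to 89207827, plus strand) was at 416, 400, 430 and 403 TPM in ST2fl/fl libraries and at 361, 421, 369 and 382 TPM in ST2WT libraries, a level above the mean of 96.8% of all entries. Bcl2a1d (chromosome 9, 88723285 to 88731914, minus strand) was at 299, 301, 317 and 291 TPM in ST2fl/fl libraries and at 288, 322, 284 and 314 TPM in ST2WT libraries. Neither differed beyond the spread of the libraries. The log2 fold change was 0.11 (95% interval -0.05 to 0.26, limma adjusted p = 0.498) for Bcl2a1b and 0.00 (-0.16 to 0.16, adjusted p = 0.996) for Bcl2a1d, and both intervals lie inside a fold change of 1.5 either way. Relative to Bcl2a1d, however, Bcl2a1b was slightly higher in ST2fl/fl libraries, at 1.39, 1.33, 1.36 and 1.39 times, than in ST2WT libraries, at 1.25, 1.31, 1.3 and 1.22 times. These ratios did not overlap, in a pair of genes whose reads cannot be split with certainty. Bcl2a1a was scarce, at 1.77 ± 0.905 TPM in ST2fl/fl cells and 3.31 ± 1.51 TPM in ST2WT cells (SD, n = 4 each), lower in the ST2fl/fl library of 4 of 4 recipients and short of the limit (log2 fold change -0.63, SE 0.29, limma adjusted p = 0.364). Gm29094, an annotated gene on the same strand, shares 401 of the 817 exon bases of Bcl2a1b and was at 6.08 ± 2.68 TPM in ST2fl/fl cells and 6.92 ± 0.848 TPM in ST2WT cells (SD, n = 4 each).

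Bax (chromosome 7, 45461697 to 45466898, minus strand), the pore former, was at 93.7, 101, 99.99 and 100.4 TPM in ST2fl/fl libraries and at 81.1, 101, 86.5 and 76.3 TPM in ST2WT libraries. The ST2fl/fl libraries lay close together, whereas ST2WT library 2 stood at the ST2fl/fl level. The means were 98.8 ± 3.37 TPM in ST2fl/fl cells and 86.2 ± 10.6 TPM in ST2WT cells (SD, n = 4 each), with a log2 fold change of 0.20 (SE 0.10, 95% interval -0.01 to 0.42, limma adjusted p = 0.380; two-sided exact permutation p = 0.114). With the block the interval was 0.01 to 0.40 (limma adjusted p = 0.237). Bax did not pass in either fit, and both intervals lie below a fold change of 1.5. Without ST2WT library 2 its log2 fold change was 0.28 (limma adjusted p = 0.0542). With array weights, an alternative given below, it was 0.27 (limma adjusted p = 0.0459), which is under the fold limit.

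**Figure D2:**
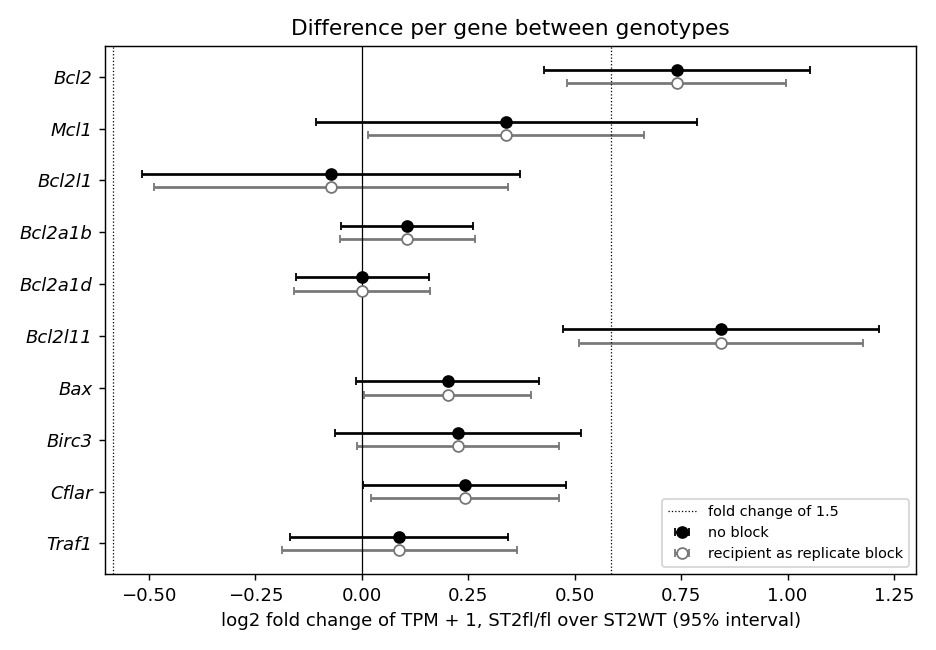
Difference per gene as log2 fold change of TPM + 1, ST2fl/fl over ST2WT (horizontal axis), with its 95% interval, from the fit without a block (filled) and with the recipient as a block (open). Dotted lines mark a fold change of 1.5 either way. Bcl2 (0.74) and Bcl2l11 (0.84) are the points beyond a dotted line, and Bcl2a1d lies at 0.00.

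At the death receptor arm, Cflar (chromosome 1, 58711508 to 58758884, plus strand), the inhibitor of caspase-8 activation, showed a small difference in every recipient. It was at 20.7, 18.1, 18.8 and 20.4 TPM in ST2fl/fl libraries and at 17.2, 13.9, 17.6 and 16.9 TPM in ST2WT libraries, without overlap. The ratios within recipients 1, 2, 3 and 4 were 1.20, 1.3, 1.07 and 1.21. On the log2 scale the fold change was 0.24 (SE 0.11, limma adjusted p = 0.353, or 0.215 with the block), so Cflar did not pass. The exact permutation p of 0.0286 for the gene alone follows from the lack of overlap. Cflar lies 79.3 Mb from Ptprc, and Il1rl1, the gene of ST2, is on chromosome 1 as well (40429570 to 40465415). The part of these loci in the difference was not tested.

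Birc3 (chromosome 9, 7848699 to 7873186, minus strand), the gene of cIAP2, was at 13.1, 17.0, 14 and 12.4 TPM in ST2fl/fl libraries and at 10.02, 13.5, 12.5 and 11.7 TPM in ST2WT libraries. Each ST2fl/fl library exceeded the ST2WT library of its recipient, most in recipient 1 (1.31-fold) and least in recipient 4 (1.06-fold), but the groups overlapped. Its log2 fold change was 0.23 (SE 0.13, limma adjusted p = 0.448, or 0.266 with the block). Traf1 (chromosome 2, 34941750 to 34961772, minus strand), an adaptor that NF-κB induces and that brings cIAP proteins to the receptor, was at 20.4, 15.8, 20.3 and 19.8 TPM in ST2fl/fl libraries and at 18.9, 19.4, 16.1 and 17.1 TPM in ST2WT libraries. Its order turned round in recipient 2, and its log2 fold change was 0.09 (SE 0.12, limma adjusted p = 0.736).

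**Figure D3:**
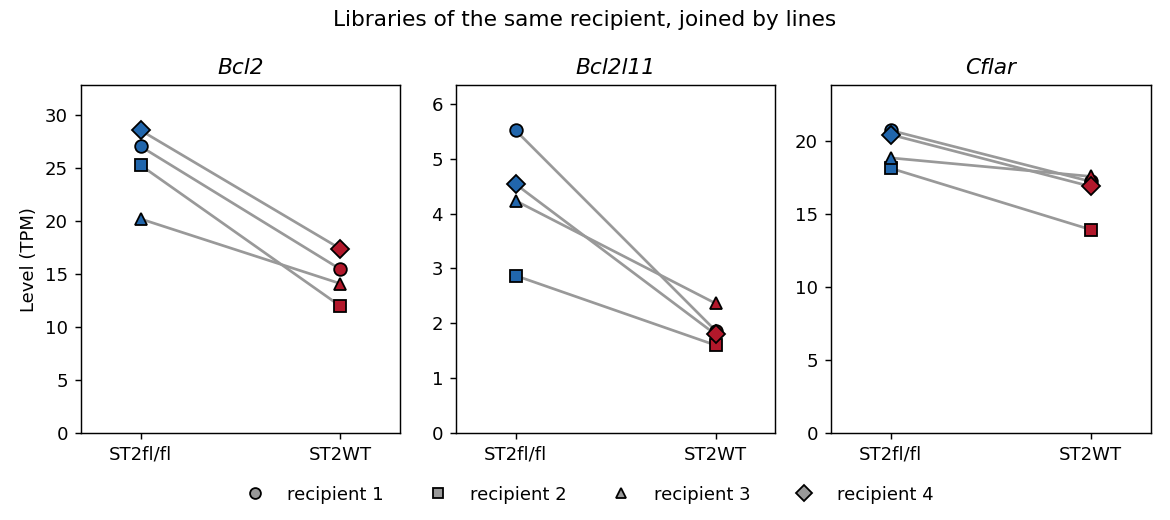
Level in TPM (vertical axes from 0) of Bcl2, Bcl2l11 and Cflar in the ST2fl/fl library (left, blue) and ST2WT library (right, red) of each of 4 recipients, joined by lines. All 4 lines run down to the ST2WT side in each panel, with the largest ratio for Bcl2l11 in recipient 1 (2.95-fold).

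Since the proteins act by binding one another, transcript ratios within a library put the members side by side. Bcl2l11 to Bcl2 was 0.204, 0.114, 0.209 and 0.159 in ST2fl/fl libraries and 0.121, 0.134, 0.168 and 0.103 in ST2WT libraries. With Bcl2 and its antagonist both higher, this ratio was higher in the ST2fl/fl library of 3 of 4 recipients, lower in recipient 2, and overlapped between genotypes. Bax to Bcl2 was lower in the ST2fl/fl library of all 4 recipients, at 3.46, 3.99, 4.95 and 3.52 against 5.24, 8.42, 6.13 and 4.38 in ST2WT libraries, with the genotypes overlapping across recipients. These ratios were chosen with the values known and were not tested.

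The 5 pro-survival members together came to 874, 837, 884 and 853 TPM in ST2fl/fl libraries and to 789, 820, 773 and 825 TPM in ST2WT libraries. The sums did not overlap, and the gap between the means, 862 ± 21.4 TPM in ST2fl/fl cells and 802 ± 24.9 TPM in ST2WT cells (SD, n = 4 each), was small beside the totals. The A1 genes made up 82.9% ± 1.52 of the sum in ST2fl/fl cells and 85.4% ± 3.62 in ST2WT cells (SD, n = 4 each). Bcl2 made up 2.94% ± 0.457 in ST2fl/fl cells and 1.84% ± 0.277 in ST2WT cells (SD, n = 4 each). Levels of transcripts say nothing of the amounts of protein.

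**Figure D4:**
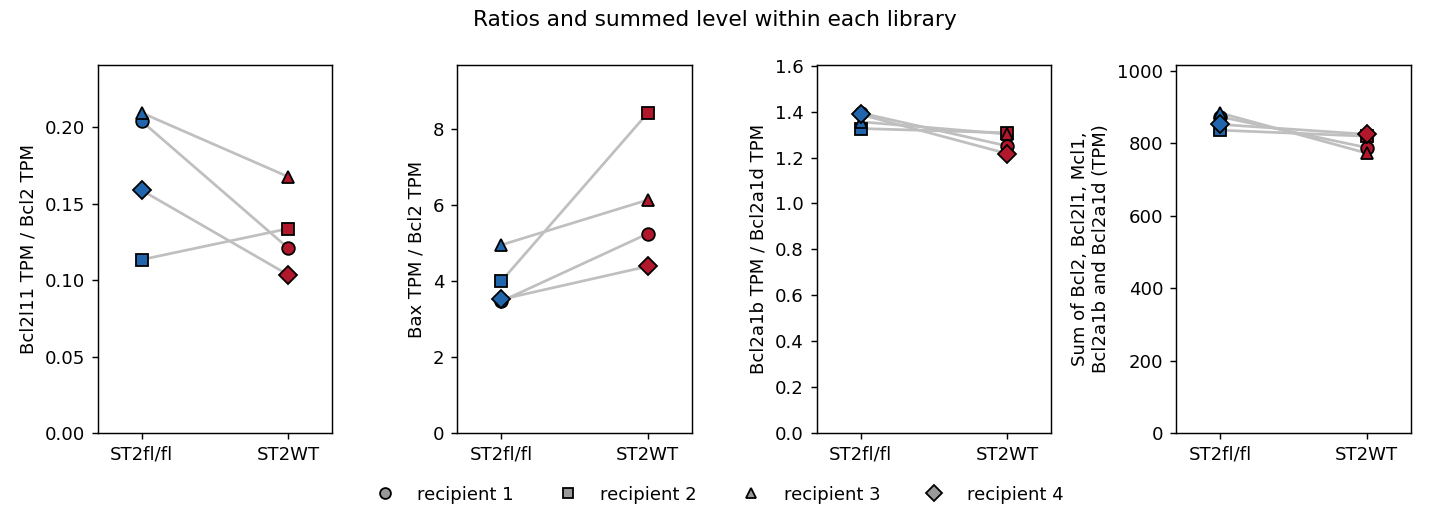
Ratios of TPM between members and the summed TPM of the 5 pro-survival members (vertical axes from 0), in the ST2fl/fl library (left, blue) and ST2WT library (right, red) of each recipient, joined by lines. Bax to Bcl2 is lower on the ST2fl/fl side in 4 of 4 recipients, and Bcl2l11 to Bcl2 is higher there in 3 of 4.

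Other genes of the same pathway were read from 6 lists that hold 61 genes, of which 51 were tested. Of these, 0 passed without the block, while at an unadjusted p under 0.05 there were 5 higher and 3 lower in ST2fl/fl cells, shares not far from the 7.11% and 6.8% of all genes, and the median log2 fold change was 0.07, against 0.01 over all genes. With the block 1 of the 51, Il7r, passed as higher and 0 as lower, beside 0.557% and 0.371% of all genes. Il7r encodes the receptor chain through which IL-7 sustains BCL2 in T cells. It was at 205, 127, 184 and 226 TPM in ST2fl/fl libraries and at 103, 61.5, 122 and 138 TPM in ST2WT libraries. Like Bcl2, it was higher in the ST2fl/fl library of 4 of 4 recipients, although ST2fl/fl library 2 fell below ST2WT library 4. The log2 fold change was 0.83 (SE 0.24), with an adjusted p of 0.185 from limma without the block and 0.0125 with it. In the fit with the block, Il7r no longer passed without recipient 1 (limma adjusted p = 0.0916) or recipient 4 (0.0529), and without the block it passed when recipient 2 was left out (0.0141).

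Among the 14 listed upstream regulators, 11 fold changes were above 0 and the median was 0.11, against 5298 of 10238 fold changes above 0 and a median of 0.01 over all genes. Nfkb2, a subunit of the alternative NF-κB pathway, was at 10.8 ± 0.483 TPM in ST2fl/fl cells and 8.03 ± 0.904 TPM in ST2WT cells (SD, n = 4 each), without overlap and short of the limit (log2 fold change 0.39, limma adjusted p = 0.173). Nfkb1 was at 50.2 ± 5.51 TPM in ST2fl/fl cells and 42.5 ± 4.03 TPM in ST2WT cells (log2 fold change 0.23, limma adjusted p = 0.372). Of the 11 listed TRAF and death receptor complex genes, 1 was higher at an unadjusted p under 0.05. This was Tnfaip3, the gene of A20, a feedback inhibitor of NF-κB. It was at 6.64, 5.77, 7.13 and 5.78 TPM in ST2fl/fl libraries and at 4.08, 2.95, 4.32 and 4.58 TPM in ST2WT libraries. The groups did not overlap, yet Tnfaip3 did not pass (log2 fold change 0.56, SE 0.14, limma adjusted p = 0.121, or 0.0765 with the block). Ripk1, a kinase of the receptor complex, was at 16.9 ± 0.409 TPM in ST2fl/fl cells and 15.7 ± 0.935 TPM in ST2WT cells (log2 fold change 0.10), and the adaptor gene Tradd at 31.6 ± 2.60 TPM in ST2fl/fl cells and 36.8 ± 7.99 TPM in ST2WT cells.

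Of the other pore-forming and BH3-only genes, 10 of 14 were tested, and at an unadjusted p under 0.05 there were 2 higher and 1 lower. The lower one was Pmaip1, which encodes the BH3-only protein NOXA. It was at 26.0, 27.6, 35.0 and 27.9 TPM in ST2fl/fl libraries and at 37.7, 59.8, 37.7 and 37.4 TPM in ST2WT libraries. Its difference thus had the opposite sign to that of the BH3-only gene Bcl2l11, without overlap, and it did not pass (log2 fold change -0.53, SE 0.16, limma adjusted p = 0.20, or 0.123 with the block). Bnip3l, a receptor for the removal of mitochondria, was at 75.9 ± 5.95 TPM in ST2fl/fl cells and 63.7 ± 3.09 TPM in ST2WT cells (SD, n = 4 each; log2 fold change 0.25, limma adjusted p = 0.265). Besides Bnip3l, the higher one was Bik, a BH3-only gene averaging 2.56 TPM (log2 fold change 0.45, limma adjusted p = 0.309). Bad, a BH3-only gene, was at 25.2 ± 2.07 TPM in ST2fl/fl cells and 27.9 ± 3.22 TPM in ST2WT cells (log2 fold change -0.14, limma adjusted p = 0.565).

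The 10 genes of mitochondrial release and the apoptosome had the only list median below 0 apart from the single tested gene of the other pro-survival list, Bcl2a1a, at -0.11, with 2 fold changes above 0 and 8 below. Cycs, the gene of cytochrome c, was at 269.6 ± 27.8 TPM in ST2fl/fl cells and 316 ± 13.2 TPM in ST2WT cells (SD, n = 4 each; log2 fold change -0.23, SE 0.08, limma adjusted p = 0.262, or 0.115 with the block). Htra2, a protease released with it, was at 6.69 ± 0.419 TPM in ST2fl/fl cells and 8.12 ± 1.33 TPM in ST2WT cells, and Diablo, which counters the inhibitor of apoptosis proteins, at 19.3 ± 1.6 TPM in ST2fl/fl cells and 23.6 ± 7.37 TPM in ST2WT cells. Of the 8 listed inhibitor of apoptosis genes 5 were tested, of which limma called 0 and 0 reached an unadjusted p under 0.05. Birc2, the gene of cIAP1 and neighbor of Birc3, was at 29.8 ± 1.76 TPM in ST2fl/fl cells and 26.4 ± 2.95 TPM in ST2WT cells (log2 fold change 0.17). Xiap was at 19.6 ± 1.05 TPM in ST2fl/fl cells and 16.5 ± 4.09 TPM in ST2WT cells (log2 fold change 0.27), and Birc5, the gene of survivin, which acts in dividing cells, at 332 ± 10.7 TPM in ST2fl/fl cells and 377 ± 39.9 TPM in ST2WT cells (log2 fold change -0.18, limma adjusted p = 0.367). Several of these differences were smaller by over 1.5 times without ST2WT library 2, at 0.08 for Xiap, -0.05 for Diablo (-0.24 with it), -0.07 for Tradd (-0.19 with it), -0.08 for Bad and -0.11 for Birc5.

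**Figure D5:**
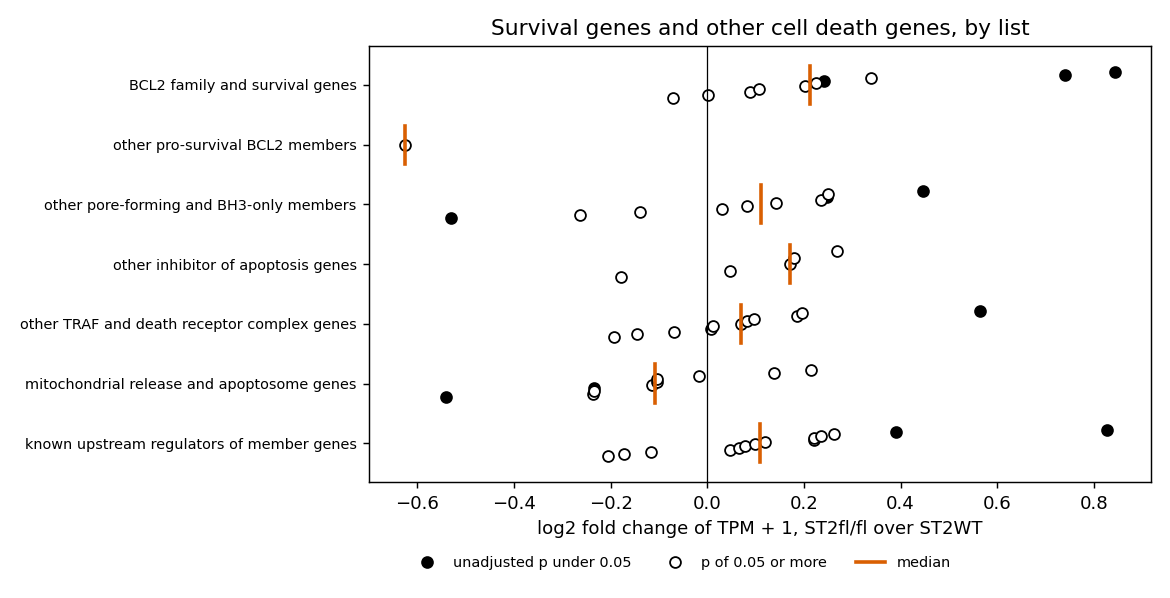
Log2 fold change of TPM + 1, ST2fl/fl over ST2WT (horizontal axis), of each tested gene in the 10 members (top) and in the 6 lists of other cell death genes. Filled points have an unadjusted p under 0.05, and orange bars mark the median, which is 0.21 for the members and -0.11 for the genes of mitochondrial release and the apoptosome.

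The sort was read against marker lists. All 10 CD4+ T cell markers were in the table, and they summed to 9828 to 10003 TPM in ST2fl/fl libraries and to 8376 to 8830 TPM in ST2WT libraries. These sums did not overlap and were higher in ST2fl/fl libraries. Of the 10 markers, 0 met the fold limit and the adjusted p limit together. Cd3g had a limma adjusted p of 0.0106 and fell short of the fold limit only. At an unadjusted p under 0.05, 5 markers were higher in ST2fl/fl cells and 0 lower. Of all tested genes, 7.11% stood higher and 6.8% lower at that limit. The sums rest mostly on abundant genes such as Cd3g (log2 fold change 0.33), Cd3d (0.23) and Trac (0.08). Cd3g, Cd3d, Cd4 (0.40) and Cd28 (0.22) did not overlap between genotypes. Thy1 (0.40), Cd3e (0.25), Cd2 (0.16), Trac, Lck (0.04) and Cd5 (-0.05) overlapped. The summed levels of the lists of other blood cells overlapped between genotypes, although single genes within them differed in either direction. The 8 of 10 CD8+, γδ T and NK cell markers in the table (Cd8a and Ncr1 were not) summed to 6198 to 6496 TPM in ST2fl/fl libraries and 5490 to 6848 TPM in ST2WT libraries, most of it from Nkg7. Of these 8, 3 reached an unadjusted p under 0.05 and 1 passed without the block, Klrc3, an NK cell receptor gene. Klrc3 was at 4.67, 7.17, 4.75 and 3.79 TPM in ST2fl/fl libraries and 0.152, 0.545, 0.749 and 1.28 TPM in ST2WT libraries (log2 fold change 1.87, limma adjusted p = 0.00368). Tcrg-C2 was also higher (1.16, adjusted p = 0.106), while Klrd1 had a difference of the opposite sign (-0.89, adjusted p = 0.134). The 3 of 10 myeloid markers in the table summed to 41.9 to 59.8 TPM in ST2fl/fl libraries and 29.9 to 44.9 TPM in ST2WT libraries. The 6 B cell markers in the table summed to 266 to 331 TPM in ST2fl/fl libraries and 323 to 334 TPM in ST2WT libraries, with Cd79a and Ms4a1 not among the entries. Of the 4 tested, 0 passed and 3 reached an unadjusted p under 0.05, each without overlap. In ST2fl/fl libraries Cd79b (log2 fold change -0.60) and Ighm (-0.32) were lower and Cd74 (0.65) was higher. The 2 of 6 erythroid markers summed to 2.08 to 3.33 TPM in ST2fl/fl libraries and 3.01 to 5.67 TPM in ST2WT libraries, and Pecam1, the 1 of 5 stromal and endothelial markers in the table, lay at 9.31 to 11.6 TPM in ST2fl/fl libraries and 12.6 to 15.3 TPM in ST2WT libraries, without overlap. Only genes above 0 in all 8 libraries are in the table. The part of cell makeup in the results was not tested. Il1rl1, the gene of ST2, was at 15.8, 14.9, 16.7 and 17.7 TPM in ST2fl/fl libraries and at 18.6, 14.6, 21.3 and 18.2 TPM in ST2WT libraries (log2 fold change -0.14, limma adjusted p = 0.608). Which exons are deleted is not given in the sources used here, and TPM per gene cannot be split by exon. This level therefore checks no label, and why it was alike in both genotypes was not tested.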

How the data were processed

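Donor CD4+ T cells of both genotypes were sorted from the spleen on d5 into SmartSeq lysis buffer, and libraries were made with Nextera XT and run on a NextSeq500. In CLC Genomics Workbench 20.0.3 the authors aligned reads to the GRCm38.p6 genome and counted them per gene, and the deposited values are TPM, scaled in each library by itself. TPM keep no read totals, so depth, counting error and TMM scaling could not be had. The authors' own test used edgeR on counts. Library strand and the handling of reads shared between genes are not given in the sources used here.

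After 2179 genes averaging under 1 TPM were dropped, log2(TPM + 1) of the other 10238 was compared with limma 3.58.1 in R 4.3.3, with moderated variances that follow an expression trend, no covariate and Benjamini-Hochberg adjustment over all of them. To pass, a gene needed a fold change over 1.5 and an adjusted p under 0.05. Exact permutation tests used all 70 labelings. P-values of the fit without the block and of the permutation tests rest on the spread between libraries and ignore the pairing. Those of the fit with the block rest on differences within the 4 recipients. The code was tested on simulated data.

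Same-numbered libraries were taken as pairs because both genotypes were transferred into the same recipients. Their deviations from the group means correlated at 0.195, 0.352, 0.118 and 0.163 for numbers 1 to 4, against -0.283 to 0.109 between different numbers. Alternatives were the recipient as a block, pseudocounts of 0.1 and 5, no filter or a mean of at least 5 TPM, median and quantile scaling, mitochondrially encoded genes left out, no variance trend, array weights, and leaving out each library or recipient. The block together with each recipient left out was added after seeing the data.

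The text names every member, from each pathway list the genes that passed and otherwise up to 3 with the smallest p and a mean of at least 5 TPM, and Il1rl1. Bcl2a1a, Bik, D630008O14Rik, Gm29094 and all cell type marker genes named singly, such as Klrc3, Klrd1, Nkg7 and Cd3g, fall outside this rule. They were picked with their values in view. Members, lists and motifs were chosen with earlier results of these data known. Coordinates are from GENCODE M21 on GRCm38, and sequences from RefSeq, in which all 10 members matched 13 start windows. Bases in annotated exons were removed, so 11 windows remained. Figures were drawn with matplotlib 3.10.9.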

Additional observations from a re-analysis of the deposited data

Results flagged for a closer look

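In the ST2fl/fl group, library 1 held 93.7 TPM of Bax, below the other 3 libraries, which lay between 99.99 and 101 TPM, and its gap to the nearest of them took up 0.874 of the group's range. Likewise ST2fl/fl library 2 held 15.8 TPM of Traf1, below the other 3 at 19.8 to 20.4 TPM, with a gap of 0.872 of the range. Of 34 groups of 4 libraries examined in this way, 1.7 would pass the 5% critical value by chance.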

How the results depend on the processing

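The direction of Bcl2 and Bcl2l11 was the same under every alternative that gave a value, and their calls lay close to the limit. Beyond the replicate block (Bcl2 0.74, Bcl2l11 0.84), both passed with quantile normalization (0.73 and 0.79, limma adjusted p = 0.0473 and 0.0471) and with array weights (0.64 and 0.86, adjusted p = 0.0161 and 0.0109), and neither passed with other pseudocounts, median scaling, mitochondrially encoded genes left out, no filter or no variance trend. Leaving out 1 library gave 0.65 to 0.84 for Bcl2 (limma adjusted p = 0.0307 to 0.176) and 0.74 to 0.99 for Bcl2l11 (0.0257 to 0.180). With both libraries of a recipient left out the range was 0.65 to 0.82 for Bcl2 and 0.73 to 0.93 for Bcl2l11, with and without the block, and both passed only without recipient 2. Bcl2l11, a low gene, came to 1.10 with a pseudocount of 0.1 and to 0.42, under the fold limit, with one of 5, and has no value at a mean of at least 5 TPM. So 2 of the 10 members passed with quantile normalization, array weights or the block, 0 with the other settings, and 0 to 2 with a library or recipient left out. Of the pathway genes 1, Il7r, passed with array weights or the block, and 0 to 1 with a library or recipient left out.

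Over all genes, 53 passed without the block, 95 with it, 130 with array weights and 32 with a pseudocount of 5. Leaving out 1 library gave 23 to 104, leaving out a recipient 9 to 107, and doing so with the block 15, 117, 38 and 16 for recipients 1, 2, 3 and 4. Bcl2l1, at -0.07 and between -0.22 and 0.12 with 1 library left out, changed sign with array weights (0.10) and without ST2WT library 2 (0.12) or recipient 2 (0.16, with and without the block). Bcl2a1d, at 0.00, became -0.0092 with median scaling, and ranged from -0.052 to 0.038 with a library or recipient left out, below 0 without ST2fl/fl library 3 (-0.023), ST2WT library 1 (-0.020) or 3 (-0.028), recipient 1 (-0.015 with and without the block) or recipient 3 (-0.052 with and without the block). No setting moved the median of all genes by 0.1. The block changed no other call among the members. Unknown depth limits Bcl2l11 and the other genes at a few TPM most.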
